A study of Mus musculus with 2 samples.

Results

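The genes described here encode dual-specificity phosphatases (DUSP) and protein tyrosine phosphatases, with their RNA measured in CD8+ regulatory T cells. Members were taken by symbol: Dusp or Ptpn followed by a number, or Ptpr followed by a letter. This gave 63 of the 22609 genes listed, of which 24 were Dusp, 17 Ptpn and 22 Ptpr symbols. Ptprcap, which encodes a protein that associates with CD45 and has no phosphatase domain, met the symbol rule and is given apart, leaving 21 receptor tyrosine phosphatase genes. The 24 Dusp genes were divided into 10 classical MAPK phosphatases and 14 atypical DUSPs.

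CD8+ regulatory T cells are a CD8+ subset known for suppressing other lymphocytes. They were sorted from spleens of unimmunised mice aged 3 months, with 1 library from WT mice and 1 from mice of genotype Tgfbr2-/-Eomes-/-, called DKO here, which are labelled as lacking the TGF-beta receptor subunit Tgfbr2 and the T-box transcription factor Eomes. The sources used here do not state how or in which cells the alleles were deleted, or how many mice went into each library. The sort gate is given only by a short tag that both libraries share and that is not explained. Both groups share the tissue, age and unimmunised state.

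Gene counts totalled 22307065 (WT) and 19661212 (DKO). Each genotype has 1 library, so nothing could be checked against replicates and no p-value was computed. Intervals of DKO to WT ratios below are exact 95% intervals, and those of count ratios within a library are log-normal. Both cover counting error only and compare these libraries, not the genotypes. Levels are in CPM, which are counts scaled to a common library size by TMM. Eomes was at 469 (WT) and 180 (DKO) CPM and Tgfbr2 at 357 and 244 CPM. Each targeted gene was thus still counted but lower in the library labelled DKO, Eomes 2.61-fold and Tgfbr2 1.46-fold. Only Eomes passed the 2-fold limit used below. All 6 CD8 T cell markers were present at similar summed levels (4968 and 4692 CPM). Genes on marker lists of other cell types were present as well, with Tyrobp on both the myeloid and the NK list. The 11 myeloid markers summed to 1578 (WT) and 4071 (DKO) CPM and the 9 dendritic cell markers to 196 and 314 CPM. The 9 NK cell markers summed to 2260 and 3315 CPM, of which Nkg7 gave 1221.5 and 1121 CPM. Sums were 109 and 277 CPM for the 8 CD4 and FOXP3 T cell markers and 134 and 91.0 CPM for the 8 B cell markers. For the 8 stromal and endothelial markers they were 91.2 and 123 CPM. Among all of these markers only Pdgfrb in the WT library was listed at 0. In a mixed sample, fewer cells of a type and less RNA per cell cannot be told apart.

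Tyrosine phosphorylation switches lymphocyte receptors and the MAP kinases on, and these phosphatases take the phosphate off again. Classical MAPK phosphatases bind ERK, JNK or p38 and remove phosphate from both the threonine and the tyrosine of the activation loop. Several of them are transcribed in response to the same kinases that they inactivate, which makes them feedback inhibitors. Non-receptor tyrosine phosphatases such as PTPN6 and PTPN22 restrain antigen receptor and cytokine signalling. Receptor tyrosine phosphatases span the membrane, and the most abundant of them in lymphocytes, CD45, both activates and limits Src-family kinases.

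Most phosphatase genes that the cells express had similar levels in the 2 libraries, and those that differed were mainly higher in the DKO library. A gene was compared when it reached 1 CPM in either library, and a call (higher or lower) needed a ratio of 2-fold or more whose interval did not include 1. Of the 63 genes, 42 were compared, 10 were called higher, 1 was called lower and 31 met neither limit. Over all 11735 genes compared, 11.6% were called higher and 3.60% lower. The median log2 ratio was 0.08 over the 42 compared members and 0.00 over all genes. Of the 31 genes that met neither limit, 29 lay within 1.5-fold. Passing the minimum in 1 library only favours a difference, and this applied to 4 members: Ptpn3 and Ptprk through the DKO library, and Dusp4 and Dusp18 through the WT library.

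The other 21 genes were not compared. In both libraries 17 were listed at 0: Dusp8, Dusp13, Dusp15, Dusp21, Dusp26, Dusp27, Ptpn20, Ptprb, Ptprd, Ptprg, Ptprh, Ptprn, Ptprq, Ptprr, Ptprt, Ptpru and Ptprz1. If a listed 0 is an absence of reads, it allows a level of up to 0.137 (WT) and 0.150 (DKO) CPM (3 counts). Dusp14 had 11 and 7 counts, Ptpn5 12 and 13, Ptprf 0 and 13, and Ptprn2 0 and 1, in the order WT and DKO used throughout.

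**Figure D1:**
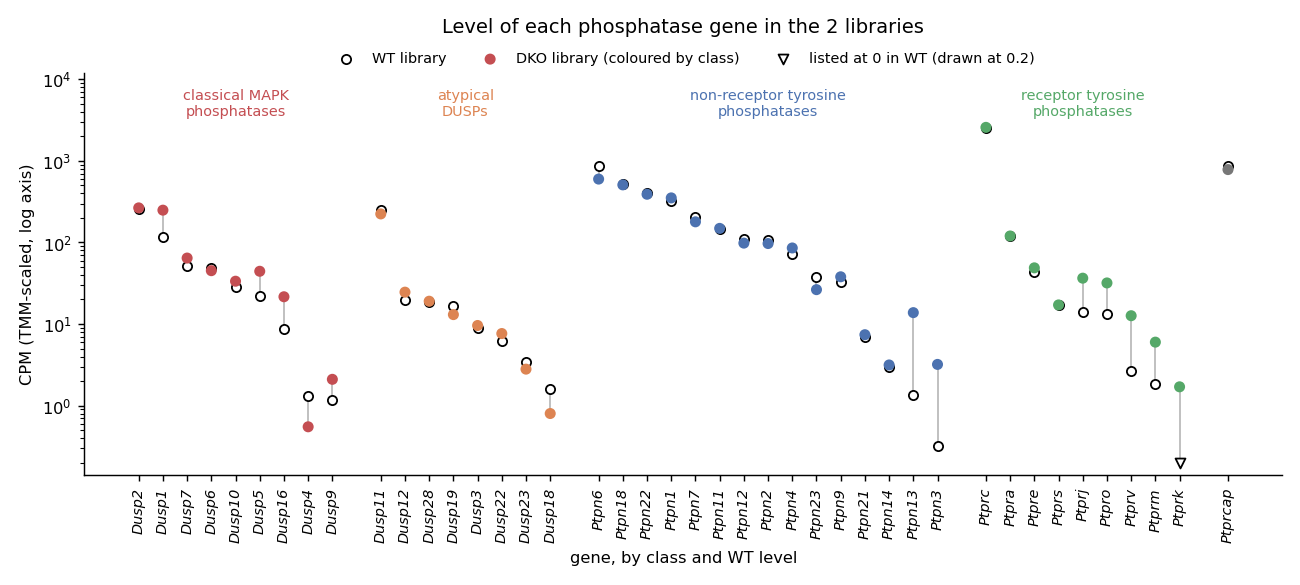
Level of each compared gene in CPM (log axis), with the WT library as open circles and the DKO library as filled circles coloured by class, ordered within a class by the WT level. Ptprk, listed at 0 in the WT library, is drawn as a triangle at 0.2 CPM. Pairs overlap for most genes above 100 CPM, while Dusp1, Dusp5, Dusp16, Ptpn13, Ptpn3, Ptprj, Ptpro, Ptprv, Ptprm and Ptprk have the DKO point clearly above.

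Compared per kilobase of exon and leaving out Ptprcap, the order of the abundant genes was nearly the same in both libraries. Ptprc, encoding CD45, held rank 1 at 490 (WT) and 504 (DKO) CPM per kilobase. Ptpn6, an SH2-domain phosphatase that restrains antigen receptor signalling, held rank 2 in the WT library at 335 CPM per kilobase and rank 3 in the DKO library at 230, changing places with Ptpn18, a PEST-family phosphatase, at 311 and 300. Dusp2 stayed at rank 4 with 158 and 164 CPM per kilobase and Ptpn22 at rank 5 with 148 and 142. Dusp1 was the abundant gene that moved most, from rank 8 at 49.1 CPM per kilobase to rank 6 at 105, above Ptpn1 and Ptpn7. Exon lengths came from a later genome build than the counts, so the order is approximate, while a ratio between libraries does not depend on length.

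Among classical MAPK phosphatases, 3 of 9 compared were called higher in the DKO library (11.6% over all genes), 1 lower (3.60%) and 5 neither. Their median log2 ratio was 0.33. They fall into nuclear inducible enzymes (Dusp1, Dusp2, Dusp4, Dusp5), cytoplasmic ERK phosphatases (Dusp6, Dusp7, Dusp9) and enzymes that prefer JNK and p38 (Dusp8, Dusp10, Dusp16). Dusp1, an immediate early gene whose product acts on p38, JNK and ERK in the nucleus, gave 2554 WT against 4978 DKO counts (116 against 249 CPM), a 2.14-fold higher level (interval 2.04 to 2.24). Dusp5, a nuclear phosphatase specific for ERK, gave 479 WT against 887 DKO counts (21.8 against 44.4 CPM), a 2.03-fold higher level (1.82 to 2.28). Its lower bound lay under 2-fold, so counting error alone spans the limit, and 20.5% of the 50-base stretches of its longest transcript also occur in transcripts of other annotated genes.

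Dusp2, a nuclear phosphatase strongly induced in activated T cells, was the most abundant DUSP in both libraries and differed little between them. It gave 5598 WT against 5309 DKO counts (255 against 266 CPM) and a ratio of 1.04 (1.00 to 1.08). The ratio of Dusp1 to Dusp2 counts within a library, which needs no scaling between libraries, was 0.456 (WT) and 0.938 (DKO), 2.06 times as high (interval 1.93 to 2.18). The ratio of Dusp5 to Dusp2 was 0.0856 and 0.167, 1.95 times as high (1.74 to 2.20). Dusp1 and Dusp5 kept their proportion to each other, at 5.33 and 5.61 counts of Dusp1 per count of Dusp5. Dusp4, the remaining nuclear enzyme, was scarce, with 29 and 11 counts, and was 2.34-fold lower (1.17 to 5.33). That call did not hold with a prior count of 5 in place of 0.5.

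To show what lies at the start of Dusp1 and Dusp5, called higher, and of Dusp2, which was level, their promoter windows are printed from RefSeq (build GRCm38.p6), from 250 bases before to 50 bases after the annotated start, 5′ to 3′ on the gene's strand. Capitals mark matches, on either strand, to the cyclic AMP response element TGACGTCA, the E-box CACGTG, the CArG box bound by serum response factor, the T-box half-site AGGTGTGA and the palindromic Smad element GTCTAGAC, none of which overlap in these windows. Dusp4 is not shown.
Dusp1 (chr17:26508423-26508722, minus strand): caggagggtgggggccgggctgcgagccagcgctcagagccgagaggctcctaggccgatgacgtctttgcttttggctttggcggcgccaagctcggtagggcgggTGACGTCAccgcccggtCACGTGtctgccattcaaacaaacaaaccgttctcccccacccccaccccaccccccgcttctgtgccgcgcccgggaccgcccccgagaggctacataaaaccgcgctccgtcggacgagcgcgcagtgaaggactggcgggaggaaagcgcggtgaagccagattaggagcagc
Dusp5 (chr19:53528895-53529194, plus strand): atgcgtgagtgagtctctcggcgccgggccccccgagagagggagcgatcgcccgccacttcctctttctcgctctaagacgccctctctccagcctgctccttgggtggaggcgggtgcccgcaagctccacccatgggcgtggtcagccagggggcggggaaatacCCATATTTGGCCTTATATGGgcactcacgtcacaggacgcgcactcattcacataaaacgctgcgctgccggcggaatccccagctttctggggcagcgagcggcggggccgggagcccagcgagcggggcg
Dusp2 (chr2:127335909-127336208, plus strand): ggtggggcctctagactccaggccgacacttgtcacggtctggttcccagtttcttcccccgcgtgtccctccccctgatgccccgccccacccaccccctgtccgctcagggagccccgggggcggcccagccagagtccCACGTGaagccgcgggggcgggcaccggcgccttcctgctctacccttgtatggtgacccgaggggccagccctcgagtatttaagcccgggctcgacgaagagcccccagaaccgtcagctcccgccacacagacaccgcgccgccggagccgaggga

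The Dusp1 window holds the cyclic AMP response element 143 bases and an E-box 126 bases before the start, Dusp5 holds adjacent CArG boxes 82 and 72 bases before it, and Dusp2 holds an E-box 109 bases before it. RefSeq windows were found for 50 of the 63 genes, 67 windows in all because some genes have several starts. The cyclic AMP response element was found in 5 of these 67 windows (Dusp1, Dusp8, Ptpn11, Ptprs and Ptpru) and in 1.79% of all 32851 windows. The E-box was in 3 windows (Dusp1, Dusp2 and Ptprs) and in 7.15% of all, and the CArG box in 3 windows (Dusp5 and Ptprr) and in 1.63% of all. The T-box half-site was in 0 of the 67 windows and 1.28% of all, and the palindromic Smad element in 1, that of Dusp28, and 0.213% of all. A match describes the letters of a window and does not show that a factor binds there.

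Of the cytoplasmic ERK phosphatases, Dusp6 and Dusp7 differed little and Dusp9 had few counts. Dusp6, the cytoplasmic feedback inhibitor that ERK signalling induces, gave 1068 WT against 902 DKO counts (48.7 against 45.1 CPM) and a ratio of 0.93 (0.85 to 1.01), which turned above 1 under the T cell receptor gene scaling. Dusp7, a close relative with the same substrate, had 51.2 and 64.4 CPM and a ratio of 1.26 (1.16 to 1.36). Dusp9 had 26 and 42 counts and a ratio of 1.76 (1.06 to 3.01), and was called higher under the T cell receptor gene scaling and at a 1.5-fold limit.

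Among the enzymes that prefer JNK and p38, Dusp16, which acts mainly on JNK, gave 192 WT against 432 DKO counts (8.75 against 21.6 CPM), a 2.46-fold higher level (2.08 to 2.94). Dusp10, which acts on p38 and JNK, had 28.7 and 33.5 CPM and a ratio of 1.17 (1.04 to 1.30). The 3 MAPK phosphatase genes called higher were thus 1 of this kind and 2 nuclear genes.

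Atypical DUSPs lack the kinase-binding domain of the classical enzymes and have varied substrates. Of 14 genes, 8 were compared and 0 were called in either direction, beside 11.6% higher and 3.60% lower over all genes. The median log2 ratio of the 8 was -0.05, which turned positive under scaling by T cell receptor genes and with a minimum of 5 CPM. Dusp11, an RNA 5′ triphosphatase, was the most abundant at 248 and 224 CPM, with a ratio of 0.90 (0.87 to 0.94) that turned above 1 under the T cell receptor gene scaling. Dusp22, which dephosphorylates the kinase LCK, had 135 and 153 counts and a ratio of 1.24 (0.98 to 1.58). Dusp18 gave 35 WT against 16 DKO counts and was 1.96-fold lower (1.07 to 3.86), just short of the limit. Dusp3, Dusp12, Dusp19, Dusp23 and Dusp28 had ratios between 0.78 (Dusp19) and 1.23 (Dusp12). For Dusp12 and Dusp3, 24.8% and 12.2% of the 50-base stretches of the longest transcript also occur in other annotated genes, so their counts are less certain.

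**Figure D2:**
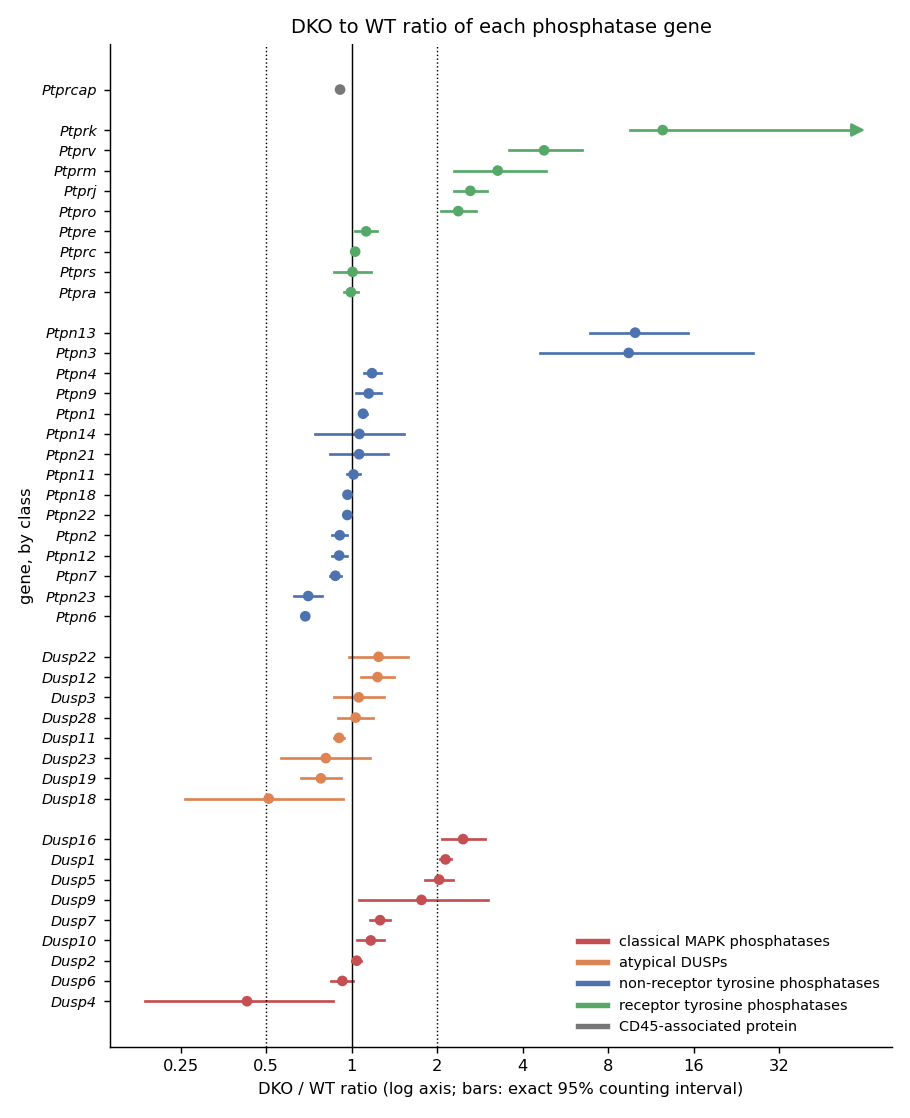
DKO to WT ratio of each compared gene on a log axis, grouped and coloured by class, with bars for the exact 95% counting interval, a solid line at 1 and dotted lines at 2-fold in either direction. Ptprk is drawn at its ratio against the floor of 3 counts with an open-ended interval. Receptor genes split into 4 near 1 and 5 beyond 2-fold, and Ptpn13 and Ptpn3 stand off from the other non-receptor genes.

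Non-receptor tyrosine phosphatases were mostly even between the libraries. Of 15 compared genes, 2 were called higher (11.6% over all genes), 0 lower (3.60%) and 13 neither. Their median log2 ratio of 0.02 turned negative with a minimum of 5 CPM. It was also negative, at -0.01, over the 14 genes that reached 1 CPM in both libraries. The 13 ratios ran from 0.69 (Ptpn6) to 1.18 (Ptpn4). Ptpn6 encodes an enzyme recruited by inhibitory receptors. It gave 19141 WT against 11970 DKO counts (873 against 599 CPM), a 1.46-fold lower level (1.42 to 1.49), the largest difference among the 14 members with a mean of 100 CPM or more apart from Dusp1. Ptpn11, the related SH2-domain enzyme that promotes Ras and ERK signalling, had 147 and 149 CPM and a ratio of 1.01 (0.96 to 1.07). Within a library there were 5.94 (WT) and 4.02 (DKO) Ptpn6 counts per Ptpn11 count, 1.48 times fewer (interval 1.40 to 1.56).

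The PEST-family and cytokine-restraining enzymes were level. Ptpn22, which inactivates LCK and ZAP70, had 405 and 390 CPM with a ratio of 0.96 (0.94 to 0.99), and Ptpn18 had 526 and 508 CPM with a ratio of 0.97 (0.94 to 0.99). Their proportion to each other was the same in both libraries, at 0.769 and 0.767 Ptpn22 counts per Ptpn18 count. Ptpn12 had a ratio of 0.90 (0.85 to 0.96). Under scaling by T cell receptor genes, the ratios of these 3 genes and of Ptpn2 turned above 1. Ptpn1 and Ptpn2, close relatives that dephosphorylate JAK and STAT proteins, leaned in different directions: Ptpn1 had 321 and 352 CPM and a ratio of 1.10 (1.06 to 1.13), and Ptpn2 had 107 and 97.0 CPM and a ratio of 0.91 (0.85 to 0.96). Within a library, Ptpn1 counts per Ptpn2 count were 3.00 and 3.63, 1.21 times as high in the DKO library (1.13 to 1.29).

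Ptpn7, a haematopoietic tyrosine phosphatase that binds ERK and p38 through a kinase interaction motif, had 205 and 179 CPM and a ratio of 0.88 (0.84 to 0.91). Of the other tyrosine phosphatase genes with this motif, Ptpn5 had 12 and 13 counts and Ptprr was listed at 0. Ptpn23, which sorts endosomal cargo, stood at 37.6 against 26.4 CPM, a 1.42-fold lower level (1.28 to 1.59). Ptpn9 had a ratio of 1.15 (1.03 to 1.27).

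Both non-receptor genes called higher belong to the FERM-domain family, whose products sit beneath the plasma membrane. Ptpn13, a very large phosphatase with several PDZ domains, gave 30 WT against 276 DKO counts (1.37 against 13.8 CPM), a 9.95-fold higher level (6.91 to 15.2). Ptpn3, which combines a FERM and a PDZ domain, gave 7 WT against 64 DKO counts (0.319 against 3.20 CPM), a 9.44-fold higher level (4.60 to 25.9). Ptpn4, which shares the domain arrangement of Ptpn3 and was the most abundant of the family, had 72.7 and 85.6 CPM and a ratio of 1.18 (1.10 to 1.26). Ptpn21 and Ptpn14 had ratios of 1.06 (0.84 to 1.34) and 1.06 (0.74 to 1.53). Of these 5 genes, then, Ptpn13 and Ptpn3 were scarce in the WT library and differed about equally, and the other 3 met neither limit. Per count of Ptpn4, Ptpn13 was 8.57 times as abundant in the DKO library as in the WT library (5.84 to 12.6) and Ptpn3 8.51 times (3.89 to 18.6).

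Receptor tyrosine phosphatases separated into a level group and a higher group, with 5 of 9 compared genes called higher, 0 lower and 4 neither. Over all genes compared, 11.6% were called higher and 3.60% lower. Ptprk and Ptprm lay below a mean of 5 CPM, where 37.1% of all genes were called higher. For Ptprv, from 5 to 20 CPM, that share was 16.0%, and for Ptprj and Ptpro, from 20 to 100 CPM, 3.44%. The median log2 ratio of the 9 receptor genes was 1.25, and it was 0.71 over the 8 that reached 1 CPM in both libraries. Ptprc dominated the class, with 55019 and 51552 counts, or 2508 and 2578 CPM, and a ratio of 1.03 (1.02 to 1.04). It made up 34.4% (WT) and 35.7% (DKO) of the summed CPM of the members. Ptprcap, whose product binds CD45, had 861 and 783 CPM and a ratio of 0.91 (0.89 to 0.93), which turned above 1 under the T cell receptor gene scaling. In the GENCODE annotation (GRCm38) all exon bases of Ptprcap also lie in exons of Rps6kb2 on the opposite strand, and since the strand setting of the counting is unknown here, its counts are uncertain.

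The other level receptor genes were Ptpra, Ptpre and Ptprs. Ptpra, a widely expressed activator of Src-family kinases, had 121 and 120 CPM and a ratio of 0.99 (0.94 to 1.05), which turned above 1 under the total-count and the T cell receptor gene scaling. Ptpre, its close relative, had 43.5 and 48.9 CPM and a ratio of 1.12 (1.03 to 1.23). Ptprs, a receptor for proteoglycans, had 374 and 343 counts and a ratio of 1.01 (0.87 to 1.17).

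The 5 higher receptor genes fall into groupings that were made after their values were seen. Of Ptprj and the receptor genes commonly grouped with it (Ptprb, Ptprh, Ptpro, Ptprq and Ptprv), 3 of 6 genes were compared and all 3 were called higher, the other 3 being listed at 0. Ptprj, encoding CD148, a regulator of Src-family kinases in leukocytes, gave 306 WT against 730 DKO counts (13.9 against 36.5 CPM), a 2.61-fold higher level (2.29 to 3.00). Ptpro, best known from kidney podocytes, gave 295 WT against 638 DKO counts (13.4 against 31.9 CPM), a 2.37-fold higher level (2.06 to 2.73). Ptprv, best known from bone and testis, gave 58 WT against 253 DKO counts (2.64 against 12.7 CPM), a 4.75-fold higher level (3.59 to 6.48).

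In the family that mediates adhesion between like molecules on adjoining cells (Ptprk, Ptprm, Ptprt and Ptpru), the 2 genes with counts were also higher. Ptprm gave 40 WT against 120 DKO counts (1.82 against 6.0 CPM), a 3.26-fold higher level (2.28 to 4.83). Ptprk gave 0 WT against 34 DKO counts. It was 12.4-fold higher when the WT library is set at 3 counts. The exact interval, with counting error in both libraries, began at 9.57-fold. Both values take the listed 0 as an absence of reads, which the sources used here do not settle, so neither is a firm minimum. All 5 higher receptor genes together were far below Ptprc: Ptprj, the highest of them by CPM though below Ptpro per kilobase, had 0.00556 (WT) and 0.0142 (DKO) counts per Ptprc count. Myeloid markers, given above, were higher in the same library, with 8 of 11 called higher (11.6% over all genes) and 0 lower (3.60%). Called higher as well were 7 of 8 CD4 and FOXP3 T cell markers, 5 of 9 dendritic cell markers and 4 of 9 NK cell markers. None in these lists was called lower, and Tyrobp counts in both the myeloid and the NK list. Among NK cell markers 7 ratios lay above 1 and 2 below. Those below were Klre1 at 0.62 (0.58 to 0.66) and Nkg7 at 0.92 (0.90 to 0.93). Stromal and endothelial markers had 2 of 5 compared genes called higher, namely Col1a1 with 1 and 23 counts and Kdr with 6 and 25. B cell markers had 1 of 7 compared genes higher and 2 lower. The part of these cell types in the Dusp, Ptpn and Ptpr ratios was not tested.

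How often genes were called depended strongly on abundance, over all genes as well as among the members. Below a mean of 5 CPM, 3 of 8 compared members were called higher (Ptpn3, Ptprk, Ptprm) and 1 lower (Dusp4), where 37.1% and 14.7% of all genes at this level were called. From 5 to 20 CPM, 3 of 9 were higher (Dusp16, Ptpn13, Ptprv) and 0 lower, where the shares of all genes were 16.0% and 3.13%. From 20 to 100 CPM, 3 of 11 were higher (Dusp5, Ptprj, Ptpro) and 0 lower, beside 3.44% and 0.497% of all genes. At 100 CPM or more, 1 of 14 was higher (Dusp1) and 0 lower, beside 1.47% and 0.628%. The calls below 5 CPM therefore lie in a range where calls were common throughout, and those above 20 CPM in a range where they were rare.

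**Figure D3:**
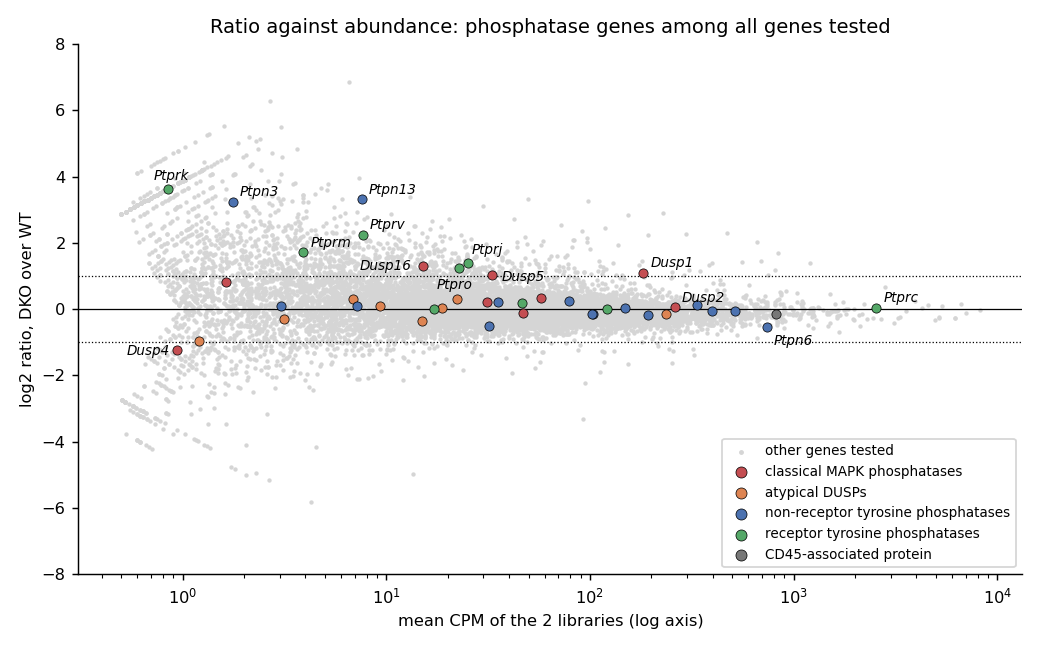
Log2 ratio of DKO over WT against the mean CPM of the libraries (log axis) for all 11735 genes compared (grey) and the 42 phosphatase genes coloured by class, with dotted lines at 2-fold. Genes listed at 0 in a library are drawn at their ratio against 3 counts. The grey cloud narrows with abundance, and Dusp1 lies at its upper edge at this level while Ptpn6 lies below 0.

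Of 27 genes of the MAP kinase cascades on which the DUSPs act, 1 was called higher, 1 lower and 25 neither, beside 11.6% and 3.60% over all genes. Most of the 27 had a mean above 20 CPM, where calls were rare. From 20 to 100 CPM 3.44% of all genes were called higher and 0.497% lower, and at 100 CPM or more 1.47% and 0.628%. The 27 genes had a median log2 ratio of -0.03 that turned positive under the total-count and the T cell receptor gene scaling. Mapk11, encoding p38 beta, stood at 32.0 against 9.90 CPM, a 3.23-fold lower level (2.76 to 3.80), and Map3k5, an upstream kinase of JNK and p38, stood at 17.9 against 37.0 CPM, a 2.07-fold higher level (1.83 to 2.35). Mapk3, encoding ERK1, had 66.3 and 115 CPM and a ratio of 1.74 (1.63 to 1.86), and Mapkapk2, a p38 effector kinase, had a ratio of 1.38 (1.31 to 1.44).

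Of 23 compared genes on a list of ERK targets and feedback inhibitors outside the phosphatases, 0 were called higher, 1 lower and 22 neither, with a median log2 ratio of 0.05. Over all genes compared the shares were 11.6% higher and 3.60% lower, and smaller above 20 CPM. The lower gene was Spry4, a feedback inhibitor of receptor tyrosine kinase signalling, with 25 and 2 counts and a ratio of 0.11 (0.010 to 0.35), named to complete the count. Myc stood at 155 against 98.8 CPM, a 1.56-fold lower level (1.48 to 1.65), and Fosb was 1.51-fold lower (1.31 to 1.74). Egr2, with 5.79 and 8.55 CPM, had a ratio of 1.48 (1.17 to 1.87) and Phlda1 one of 1.55 (1.18 to 2.03).

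Tyrosine kinases and adaptors of lymphocyte receptors, many of them substrates of Ptprc, Ptpn6 and Ptpn22, had 0 of 23 genes called in either direction and a median log2 ratio of -0.21. Most of the 23 had a mean of 100 CPM or more, where only 1.47% of all genes were called higher and 0.628% lower. Zap70 was 1.38-fold lower (1.34 to 1.42), Fyn 1.36-fold (1.32 to 1.39) and Lck 1.33-fold (1.30 to 1.35), while Tyk2 had a ratio of 1.31 (1.25 to 1.37). The lower Ptpn6 level thus stood beside lower levels of several kinases. Scaling by T cell receptor genes, some of them on this list, gave a list median of -0.028. It gave a log2 ratio of -0.36 for Ptpn6, beside -0.54 under TMM, so the size of both differences depends on the scaling. Phosphatase genes outside the symbol rule had 4 of 29 compared genes called higher (11.6% over all genes), 0 lower (3.60%) and 25 neither, and their median log2 ratio was 0.09. Tns1 and Tns3, tensins that link integrins to actin, were 4.24-fold (3.44 to 5.31) and 2.81-fold (2.44 to 3.26) higher, and the cell cycle phosphatase genes Cdc25c, with 14 and 58 counts, and Cdkn3, with 30 and 56 counts, complete the count. Ptp4a3 and Ssh2, abundant in both libraries, were 1.53-fold (1.48 to 1.59) and 1.52-fold (1.47 to 1.57) lower.

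**Figure D4:**
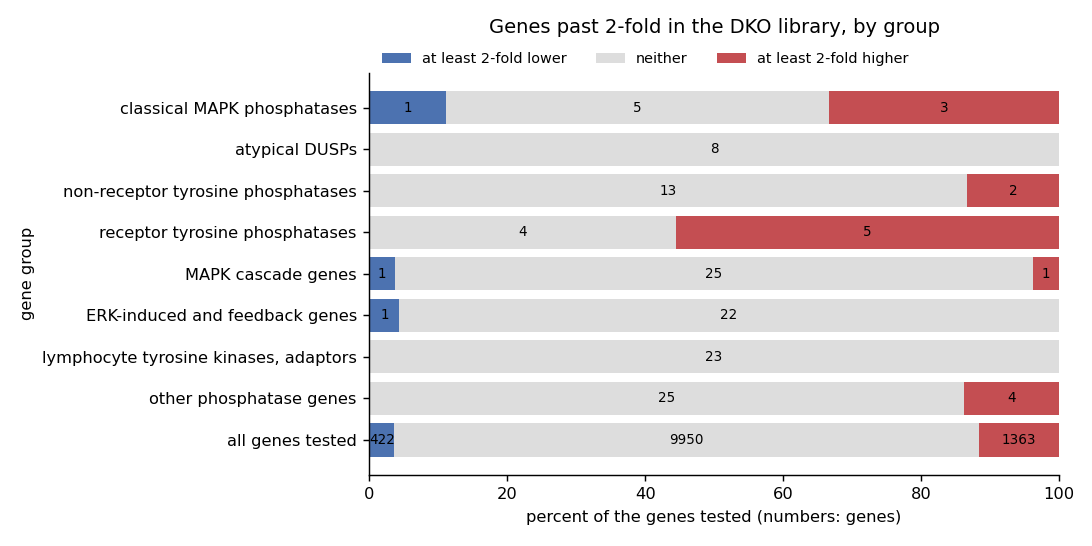
Share of the compared genes of each group that were at least 2-fold lower (blue), neither (grey) or at least 2-fold higher (red) in the DKO library, as percent, with the number of genes in each segment. Receptor tyrosine phosphatases have 5 of 9 and classical MAPK phosphatases 3 of 9 genes in red, atypical DUSPs have 0 of 8, and 1363 of all 11735 genes are in red.

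Setting the classes side by side, classical MAPK phosphatase RNA summed to 533 (WT) and 726 (DKO) CPM, atypical DUSP RNA to 324 and 302 CPM, non-receptor tyrosine phosphatase RNA to 2847 and 2551 CPM and receptor tyrosine phosphatase RNA to 2722 and 2854 CPM. The higher sum of the MAPK phosphatases came mainly from Dusp1, which went from 116 to 249 CPM, and the lower sum of the non-receptor class mainly from Ptpn6, which went from 873 to 599 CPM. In the receptor class, Ptprc stood at 2508 and 2578 CPM. Differences between the classes were not tested, since the genes of a class are not replicates of a genotype.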

How the data were processed

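For each of the 2 libraries the authors deposited raw counts, 1 whole number for each gene symbol. Per the labels' protocols, libraries were made from total RNA and sequenced as single-end reads. Tools named in the submitters' processing notes, without roles, are HTSeq, TopHat2 2.0.8b and bcl2fastq, with mm9 as the build. The sources used here do not give the annotation, strandedness or any filter. The 5 rows that name no gene (71.5% of the WT and 69.5% of the DKO total, mostly non-unique alignments) were left out.

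Counts were scaled by TMM (edgeR 4.0.16, R 4.3.3). Ratios used a prior count of 0.5, and intervals were Clopper-Pearson 95% intervals of the DKO share of a gene's counts (scipy 1.17.1). Within-library ratios have log-normal intervals. Both, and the floor of 3 counts, reflect counting error alone, and reads here carry no molecular identifiers, so they may repeat molecules. Genes at 1 CPM or more in either library were compared at a 2-fold limit. Scripts were tested on simulated data. Exon lengths, overlaps and shared 50-base stretches came from GENCODE vM21.

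Every member could be named, with full values for called members and the most abundant of each class; list genes were up to 4 with the largest ratio at 5 CPM or more. Within-library pairs, the receptor families and the promoter windows were picked after values were seen. Members and lists were chosen with earlier results of these data known. Alternatives were 3 other scalings (total counts, DESeq2 1.42.0 size factors, T cell receptor complex genes), no filter or 5 CPM, a prior count of 5, and limits of 1.5-fold and 4-fold.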

Additional observations from a re-analysis of the deposited data

How the results depend on the processing

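No paired analysis was possible because each genotype has 1 library, and for the same reason no library could be left out. The 10 genes called higher stayed called under all 3 other scalings and with a prior count of 5. Dropping the filter or loosening the limit to 1.5-fold can only add calls, so neither setting checks those already made. With a minimum of 5 CPM, Ptpn3 and Ptprk were no longer compared, and at a 4-fold limit 4 genes were higher (Ptpn3, Ptpn13, Ptprk and Ptprv). The genes called lower numbered 0 with a minimum of 5 CPM, with a prior count of 5 and at 4-fold, and 2 at 1.5-fold (Dusp4 and Dusp18). Scaling by T cell receptor genes raised the median log2 ratio of all genes by 0.19. It gave medians of 0.27 for all members, 0.52 for classical MAPK phosphatases, 0.13 for atypical DUSPs, 0.21 for non-receptor and 1.43 for receptor tyrosine phosphatases, changed the sign of 8 members that met neither limit, and added Dusp9 to the higher genes. Total counts changed the sign of Ptpra alone and DESeq2 size factors of 0 members. The median of receptor tyrosine phosphatases was 1.39 without a filter and 0.71 with a minimum of 5 CPM, under which that of atypical DUSPs was 0.064 and that of non-receptor tyrosine phosphatases -0.050. Without a filter Ptprf, with 0 and 13 counts, was also called higher. Dusp4, Dusp9, Dusp18, Ptpn3, Ptpn14 and Ptprk had under 70 counts in both libraries, which limits the precision of their ratios.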

Other observations

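Values of 0 were far more frequent than values of 1 in both libraries. In the WT library 9990 of the 22609 genes were listed at 0 and 126 at 1 count, and in the DKO library 9325 and 186. Of the genes at 0 in the WT library, 1059 had counts in the DKO library, and Ptprk, with 34, Ptprf, with 13, and Ptprn2, with 1, were among them. Of the genes at 0 in the DKO library, 394 had counts in the WT library, and 0 of the 63 Dusp, Ptpn and Ptpr genes were among them. Whether low values were filtered before deposit is not stated in the sources used here, so a listed 0 need not be an absence of reads.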
